A study of Mus musculus with 9 samples.

Results

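The SLAM receptors, the adaptor SAP and the kinase Fyn were followed in RNA of Tfh cells, the T follicular helper cells that support B cells in lymphoid follicles, from Peyer's patches of the mouse gut. The genes were taken by symbol from the table of counts, and all 7 were found among its 54146 genes: the receptor genes Slamf1, Slamf6, Cd84 and Ly9, the receptor and ligand gene Cd48, Sh2d1a, which encodes SAP, and Fyn. All 7 were abundant enough to be tested. The study compared mice heterozygous for a mutant Tgfbr1 allele (WT/mut, n = 5 libraries, replicates 6 to 10) with wild-type littermates (WT, n = 4 libraries, replicates 1, 3, 4 and 5). Cells of both groups were sorted as CD4+CXCR5+PD1+ and no treatment is named. The labels do not describe the mutation and give no age, sex, strain or sorting day, nor the litter a library came from. Nor do they tie each library to an animal of its own, and p-values here reflect the spread among libraries, which may be technical.

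SLAM receptors are immunoglobulin superfamily proteins on blood cells, and most of them bind the same receptor on a neighbouring cell. Their tails carry tyrosine motifs that take up SAP, a small protein made of little more than an SH2 domain. SAP in turn brings in Fyn, a kinase of the Src family, and keeps inhibitory phosphatases away. In Tfh cells this system is known for stabilising contact with B cells and for the making of germinal centres, which SAP-deficient mice largely lack. The TGF-beta receptor subunit encoded by Tgfbr1 signals through Smad proteins, and the comparison asks what follows for Tfh cells when 1 allele is mutant.

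Levels are given as CPM, the count of a gene relative to the TMM-scaled total of its library. A positive log2 fold change means a higher level in WT/mut, and a gene was called at an edgeR adjusted p under 0.05 over 15521 tested genes. None of the 7 genes was called by edgeR, against 0.122% of all tested genes (0.0322% higher and 0.0902% lower), and 0 of the 7 had an unadjusted p under 0.05, against 12.2% of all. DESeq2 also called 0 of the 7 (1.86% of the 15467 genes with an adjusted p) and gave Slamf1 an unadjusted p of 0.0445. The CPM ranges of the groups overlapped for all 7, whereas they were separate for 4.46% of tested genes (2.09% higher and 2.38% lower in WT/mut). The median log2 fold change of the 7 genes was -0.06, beside 0.0015 over all tested genes and -0.07 over the 2000 most abundant. Values were negative for 5 of the 7, which compares with 49.8% of all tested genes and 61.6% of the 2000 most abundant.

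Total counts per library lay between 29488851 and 43872732. Between 17904 and 20264 genes were detected in 8 libraries and 30143 in WT/mut replicate 7. Tgfbr1 itself (ENSMUSG00000007613.15) had 83.0, 87.0, 67.6, 82.8 and 47.3 CPM in WT/mut replicates 6 to 10, against 49.9, 82.9, 76.6 and 98.4 CPM in WT replicates 1, 3, 4 and 5. These ranges overlapped (log2 fold change -0.07 ± 0.21 (SE), edgeR adjusted p = 0.921), and counts per gene do not separate the alleles. The T cell markers Cd3d, Cd3e, Cd3g, Cd4, Cd5, Cd28, Cxcr5 and Pdcd1 summed to between 6170 and 6800 CPM in WT/mut and between 6140 and 7090 CPM in WT, led by Pdcd1 and Cxcr5.

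Markers of other cells were present in every library. The 10 B cell markers, of which Cd22 and Ms4a1 were the most abundant over all 9 libraries, summed to between 256 and 574 CPM in WT/mut and between 124 and 316 CPM in WT. The 7 plasma cell markers, led by Igha and Igkc, summed to between 408 and 1380 CPM in WT/mut and between 87.3 and 384 CPM in WT, so these sums did not overlap. Tnfrsf17, a receptor of plasma cells, had 30 counts summed over WT/mut and 0 summed over WT. Of the 30, 12 were in WT/mut replicate 6 and 18 in WT/mut replicate 7. Sdc1, another plasma cell marker, was not higher, at 1.73 ± 1.12 CPM (SD) in WT/mut, against 2.00 ± 1.72 CPM in WT. Among the 6 plasma cell markers tested, log2 fold changes were positive for 5 and negative for 1, Sdc1. The 8 myeloid and dendritic markers, led by Lyz2 and Csf1r, summed to between 53.4 and 292 CPM in WT/mut and between 47.9 and 174 CPM in WT. The 7 platelet and red cell markers, led by Hbb-bs and Hba-a1, summed to between 275 and 592 CPM in WT/mut and between 71.9 and 194 CPM in WT, again without overlap. The platelet genes Pf4 (1.41 CPM in WT/mut, against 0.793 CPM in WT) and Itga2b (0.517 CPM in WT/mut, against 0.483 CPM in WT) had overlapping ranges. Gp1ba had 16 counts summed over WT/mut and 24 summed over WT, and Gp9 had 0 counts in WT/mut and 5 summed over WT. B cells, plasma cells and myeloid cells are known to carry several SLAM receptors. In bulk samples, fewer cells of a type and less RNA per cell cannot be told apart.

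Slamf1, Cd84, Slamf6, Cd48 and Ly9 stand together within 365 kb of chromosome 1 (171588624 to 171953170 on GRCm38, the assembly of mm10). RefSeq on GRCm38.p6 gave a promoter for 5 of the 7 genes. The 250 bases before the RefSeq start of Slamf1, the gene of the 7 with the largest difference between the groups, and of Slamf6, the receptor gene whose WT libraries varied most, are shown with any CAGAC or its reverse complement GTCTG in capitals, a motif that Smad3 and Smad4 are known to bind. Both are on the plus strand, at chr1:171766882-171767131 for Slamf1 and chr1:171917212-171917461 for Slamf6.
Slamf1: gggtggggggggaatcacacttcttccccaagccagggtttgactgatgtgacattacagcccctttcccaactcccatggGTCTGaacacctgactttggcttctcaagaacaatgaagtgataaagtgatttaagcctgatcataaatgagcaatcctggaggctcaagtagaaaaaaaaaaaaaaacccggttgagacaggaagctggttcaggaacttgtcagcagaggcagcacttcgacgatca
Slamf6: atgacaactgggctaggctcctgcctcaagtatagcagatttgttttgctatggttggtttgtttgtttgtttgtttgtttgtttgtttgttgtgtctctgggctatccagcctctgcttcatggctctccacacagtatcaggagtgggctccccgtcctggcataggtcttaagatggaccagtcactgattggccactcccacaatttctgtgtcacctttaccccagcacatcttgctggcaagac
The Slamf1 window held 1 match, beginning 169 bases before the start, and that of Slamf6 held 0. Cd84 and Cd48 had 1 match each and Fyn had 0, so the motif was in 3 of the 5 windows, beside 42.2% of 32851 promoters of the same length. Binding data were not used here, and these matches are a description of sequence only.

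Slamf1 encodes SLAM (CD150), a self-binding receptor that in CD4 T cells is known to help IL-4 production through SAP. It lies on the plus strand of chromosome 1 at 171767127 to 171801184 (ENSMUSG00000015316.11). Its level was 99.2, 90.6, 85.6, 70.8 and 75.6 CPM in WT/mut replicates 6 to 10, against 64.1, 81.7, 57.1 and 72.7 CPM in WT replicates 1, 3, 4 and 5. Of the 5 WT/mut libraries, replicates 6, 7 and 8 lay above every WT library, while replicates 9 and 10 lay inside the WT range. The means were 84.4 ± 11.4 CPM (SD, n = 5) in WT/mut and 68.9 ± 10.6 CPM (SD, n = 4) in WT. The log2 fold change of 0.29 ± 0.14 (SE) had a 95% interval from -0.00499 to 0.59 and did not pass (edgeR adjusted p = 0.414, unadjusted p = 0.0533, exact two-sided permutation p = 0.0794). In folds the interval ran from 0.997 to 1.504. The value was positive in all 17 alternative fits, between 0.17 and 0.38, and none of them called it.

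Slamf6 encodes Ly108, a self-binding receptor that is known to hinder T to B cell contact when SAP is missing. The gene lies on the plus strand of chromosome 1 at 171917515 to 171953170 (ENSMUSG00000015314.10). It was measured at 576, 496, 531, 575 and 585 CPM in WT/mut replicates 6 to 10, against 433, 566, 570 and 740 CPM in WT replicates 1, 3, 4 and 5. All 5 WT/mut libraries lay between the lowest WT library, replicate 1, and the highest, replicate 5. Means were 553 ± 38 CPM (SD, n = 5) in WT/mut and 576.9 ± 125.8 CPM (SD, n = 4) in WT. The log2 fold change was -0.06 ± 0.14 (SE; 95% interval -0.36 to 0.23, edgeR adjusted p = 0.877, exact permutation p = 0.794). It was -0.18 without WT replicate 1, and it was positive, at 0.08, without WT replicate 5.

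Cd84 encodes a self-binding receptor that is known to prolong contact between Tfh and B cells. It lies on the plus strand of chromosome 1 at 171839697 to 171890718 (ENSMUSG00000038147.13). The level was 250, 251, 240, 248 and 212 CPM in WT/mut replicates 6 to 10, against 245, 209, 209 and 288 CPM in WT replicates 1, 3, 4 and 5. WT/mut replicate 10 was low and close to WT replicates 3 and 4, and WT replicate 5 was highest of all 9. Means of 240 ± 16 CPM (SD, n = 5) in WT/mut and 238 ± 38 CPM (SD, n = 4) in WT gave a log2 fold change of 0.015 ± 0.11 (SE; 95% interval -0.23 to 0.26, edgeR adjusted p = 0.966, exact permutation p = 0.706). It was 0.12 without WT replicate 5, and it was negative without WT replicate 4 (-0.05), without WT replicate 3 (-0.04) and without WT/mut replicate 7 (-0.0015).

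Ly9 encodes SLAMF3, also a self-binding receptor. The gene runs on the minus strand of chromosome 1 from 171588624 to 171607410 (ENSMUSG00000004707.14), inside the span of Cd244 on the opposite strand. The kit does not mark the strand, but the annotation gives them no shared exon bases, and Cd244 had between 24 and 131 counts per library. Ly9 was at 233, 211, 228, 207 and 248 CPM in WT/mut replicates 6 to 10, against 274, 242, 193 and 234 CPM in WT replicates 1, 3, 4 and 5. Every WT/mut library lay between WT replicate 4, the lowest, and WT replicate 1, the highest. Its log2 fold change was -0.06 ± 0.11 (SE; 95% interval -0.30 to 0.17, edgeR adjusted p = 0.833, exact permutation p = 0.611), from means of 226 ± 17 CPM (SD, n = 5) in WT/mut and 236 ± 33 CPM (SD, n = 4) in WT. Without WT replicate 1 it was 0.016.

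Cd48 encodes a small surface protein held by a lipid anchor, without a tail for SAP, which in mice is the ligand of CD2 and of CD244. It lies on the plus strand of chromosome 1 at 171682009 to 171705258 (ENSMUSG00000015355.13). Libraries of WT/mut replicates 6 to 10 had 185, 187, 174, 181 and 189 CPM, against 187, 181, 180 and 224 CPM in WT replicates 1, 3, 4 and 5. WT replicate 5 stood alone above the other 8 libraries, which lay close together. Cd48 averaged 183 ± 5.9 CPM (SD, n = 5) in WT/mut and 193 ± 21 CPM (SD, n = 4) in WT. The log2 fold change of -0.08 ± 0.09 (SE; 95% interval -0.27 to 0.12, edgeR adjusted p = 0.743, exact permutation p = 0.397) became 0.00064 without WT replicate 5.

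Sh2d1a, on the plus strand of chromosome X at 42502453 to 42529330 (ENSMUSG00000005696.11), encodes SAP. Part of its annotated exons, 1465 bases, overlaps Tenm1 on the opposite strand, which had between 0 and 8 counts per library. Sh2d1a was at 410, 369, 383, 445 and 442 CPM in WT/mut replicates 6 to 10, against 460, 427, 423 and 532 CPM in WT replicates 1, 3, 4 and 5. WT/mut replicates 6, 7 and 8 lay below every WT library, whereas replicates 9 and 10 lay inside the WT range. The means were 410 ± 34 CPM (SD, n = 5) in WT/mut and 460.6 ± 50.5 CPM (SD, n = 4) in WT. With a log2 fold change of -0.17 ± 0.10 (SE; 95% interval -0.39 to 0.05) Sh2d1a did not pass (edgeR adjusted p = 0.495, unadjusted p = 0.116, exact permutation p = 0.119). As a fold the interval ran from 0.764 to 1.035. Without WT replicate 5 the value was -0.09, and over the 9 fits that each left out 1 library it lay between -0.21 and -0.09.

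Fyn, the Src family kinase that SAP recruits, lies on the plus strand of chromosome 10 at 39368855 to 39565381 (ENSMUSG00000019843.14). In WT/mut replicates 6 to 10 it had 1482, 1435, 1657, 1457 and 1687 CPM, against 1561, 1701, 1619 and 1628 CPM in WT replicates 1, 3, 4 and 5. Replicates 6, 7 and 9 of WT/mut were below all WT libraries, and replicates 8 and 10 were within the WT range. Fyn averaged 1543 ± 119 CPM (SD, n = 5) in WT/mut and 1627 ± 57 CPM (SD, n = 4) in WT (log2 fold change -0.08 ± 0.09 (SE), 95% interval -0.26 to 0.11, edgeR adjusted p = 0.733, exact permutation p = 0.214).

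**Figure D1:**
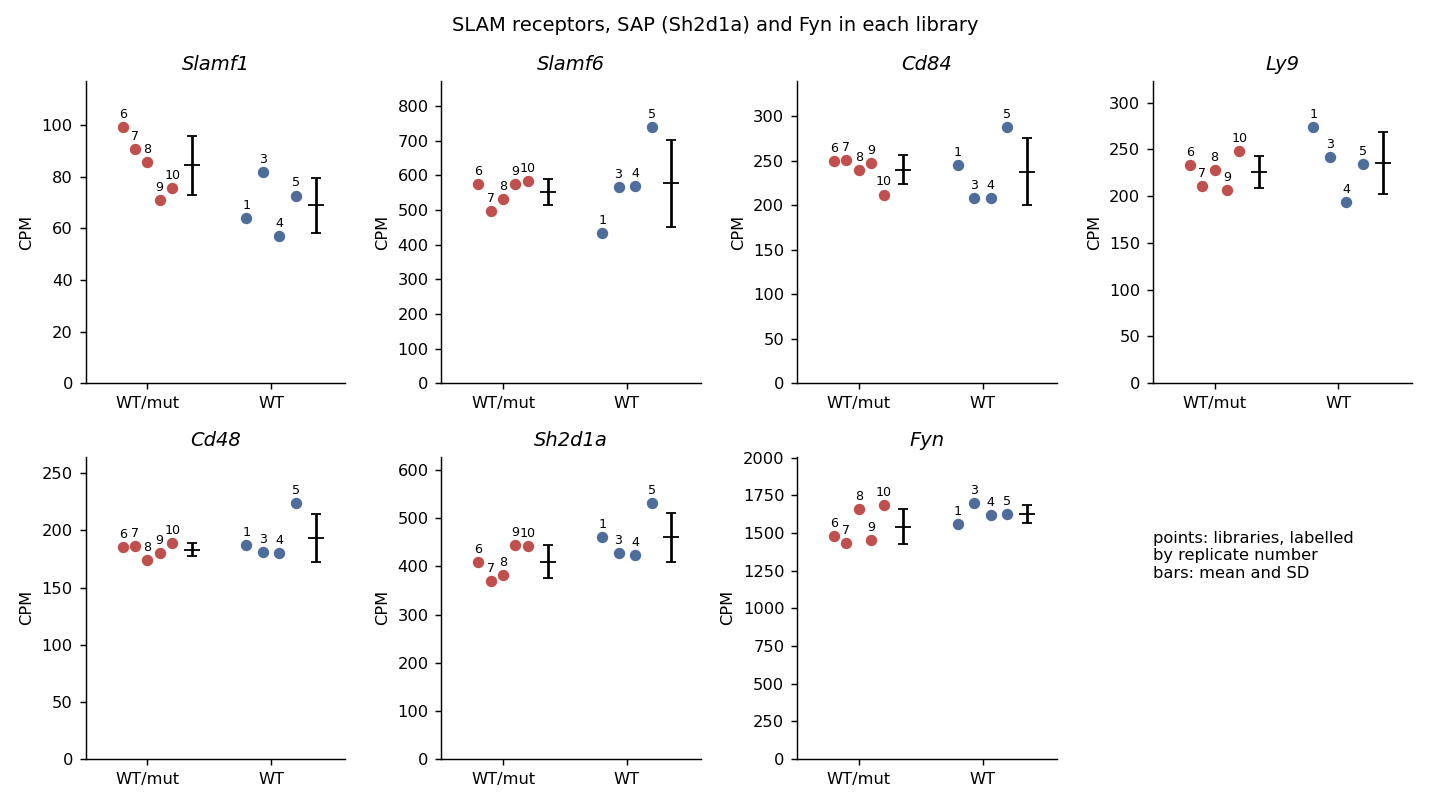
CPM of each of the 7 genes in each library (points, numbered by replicate), with WT/mut left of WT and the group mean and SD as bars. The groups overlap for every gene, and WT replicate 5 is the highest point for Slamf6, Cd84, Cd48 and Sh2d1a.

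Some libraries were extreme for several of the genes. WT replicate 5 was the highest of the 9 libraries for 4 genes, Slamf6, Cd84, Cd48 and Sh2d1a, and WT replicate 4 was the lowest for 3, Slamf1, Cd84 and Ly9. WT/mut replicate 7, the library with 30143 genes detected, was the lowest for 2, Sh2d1a and Fyn. Without it their log2 fold changes were -0.134 for Sh2d1a and -0.0511 for Fyn. The coefficient of variation was smaller in WT/mut than in WT for 6 of the 7 genes, the exception being Fyn at 7.71% in WT/mut and 3.51% in WT. For Slamf6 it was 6.86% in WT/mut and 21.8% in WT, and for Cd48 it was 3.20% in WT/mut and 10.8% in WT. A smaller spread in WT/mut was also the usual case over the table, holding for 65.9% of 15511 tested genes with counts in both groups and for 80.6% of the 2000 most abundant.

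Per length of transcript Fyn stood first and Slamf1 last. With CPM divided by the annotated exon length in kilobases, Fyn led at 354 ± 27 in WT/mut and 373 ± 13 in WT, followed by Cd48 at 154 ± 4.9 in WT/mut and 163 ± 17 in WT. Sh2d1a came next at 74.4 ± 6.2 CPM per kb in WT/mut and 83.7 ± 9.2 in WT, and its range overlapped that of Ly9, at 68.2 ± 5.1 in WT/mut and 71.3 ± 10.0 in WT. Slamf6 followed at 51.0 ± 3.5 CPM per kb in WT/mut and 53.3 ± 11.6 in WT, and Cd84 at 38.3 ± 2.6 in WT/mut and 37.9 ± 6.0 in WT (all SD, n = 5 and 4). Slamf1 was lowest, at 13.7 ± 1.9 CPM per kb in WT/mut and 11.2 ± 1.7 in WT, and no library of either group reached the range of Cd84. The order was the same in both groups. In WT the ranges of Ly9 and Slamf6 and those of Slamf6 and Cd84 also overlapped. The length chosen changes the places of Cd48, Sh2d1a, Ly9 and Slamf6. Slamf6 moved from place 5 to 4 with the longest coding transcript and to 3 with the median coding transcript, in both groups. The annotated exons of Sh2d1a span 5505 bases, against 1223 in its longest coding transcript. With the longest coding transcript its level was 335 ± 28 CPM per kb in WT/mut and 377 ± 41 in WT, above Cd48, while Fyn stayed first and Slamf1 last.

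**Figure D2:**
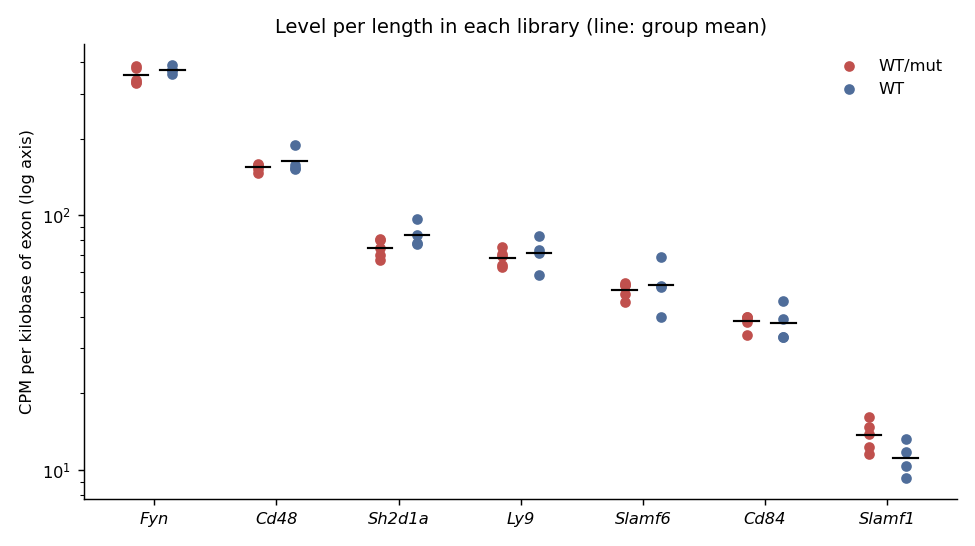
Level of each of the 7 genes per kilobase of annotated exon (log axis, CPM per kb), 1 point per library and a line at each group mean, WT/mut left of WT. Fyn is highest at 354 in WT/mut and 373 in WT, and Slamf1 lowest at 13.7 in WT/mut and 11.2 in WT.

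Within the 9 libraries the 7 genes differed in their profiles. Likeness was measured as the root mean square difference of z-scored log2 CPM, which is 0 for identical profiles. Predicted, clone-named and mitochondrially encoded genes were left out of the medians and of the search for the nearest genes. From each of the 7 to the tested genes kept, the median lay between 1.32 and 1.35. The closest pair was Cd48 and Sh2d1a at 0.639, and Sh2d1a stood at place 314 among all genes by likeness to Cd48. WT replicate 5 was the highest library for both, at 0.259 for Cd48 and 0.307 for Sh2d1a above the mean log2 CPM of the 9 libraries. The part of that library in the likeness was not tested. Slamf1 and Sh2d1a were the least alike at 1.63. The nearest of the genes kept were Pik3r1 (0.337) and Clec5a (0.394) for Slamf1, Ap4e1 (0.235) and Ncoa4 (0.347) for Slamf6, and Casd1 (0.252) and Tmem243 (0.253) for Cd84. For Ly9 they were Eif2b1 (0.182) and Rnf146 (0.267), for Cd48 Tmed5 (0.264) and Thoc2 (0.32), for Sh2d1a Sumo2 (0.219) and Krt10 (0.255), and for Fyn Unk (0.315) and Pus7 (0.357). These are the smallest values among the tested genes kept, over 9 libraries, and are given as a description.

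Of the remaining SLAM family receptors and adaptors, 0 of 5 tested were called by edgeR or DESeq2, beside 0.122% and 1.86% over all genes. EdgeR gave 1 of the 5, Slamf8, an unadjusted p under 0.05, beside 12.2% of all tested genes. Slamf7, the gene of a self-binding receptor of NK and plasma cells, was at 13.4 ± 2.5 CPM in WT/mut, against 16.4 ± 3.9 CPM in WT (log2 fold change -0.29 ± 0.20 (SE), edgeR adjusted p = 0.555). Slamf8, which is known from myeloid cells and has a short tail, was at 5.20 ± 1.82 CPM in WT/mut, against 2.43 ± 1.22 CPM in WT (1.10 ± 0.43, adjusted p = 0.350, unadjusted p = 0.0250). The part of the myeloid marker sums in that value was not tested. Cd244, which encodes the CD48 receptor 2B4 of NK cells, had 2.15 ± 1.00 CPM in WT/mut, against 2.11 ± 1.43 CPM in WT. Slamf9 had 0.549 ± 0.400 CPM in WT/mut, against 0.445 ± 0.338 CPM in WT. Of the SAP relatives, Sh2d1b1, the gene of the NK cell adaptor EAT-2, was at 1.01 ± 0.32 CPM in WT/mut, against 0.487 ± 0.190 CPM in WT (1.05 ± 0.56, adjusted p = 0.463). Sh2d1b2 had 11 counts summed over WT/mut and 8 summed over WT and was too low to test.

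The pathway was followed through 4 gene lists with 38 genes, of which 37 were tested. The lists were chosen with earlier results of these data known, so the shares below are a description and no test of enrichment. EdgeR called 0 of them, beside 0.122% of all tested genes, and gave 10 an unadjusted p under 0.05, beside 12.2%. DESeq2 called 3, beside 1.86% of all genes with an adjusted p. Of the 10, 5 were higher, beside 5.69% of all tested genes, and 5 were lower, beside 6.46%. The median log2 fold change of the 37 was 0.013, and 17 values were negative.

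On the CD2 and CD48 axis, Cd2, the receptor through which T cells bind CD48 in mice, was measured at 687 ± 74 CPM in WT/mut, against 834.3 ± 126.3 CPM in WT (log2 fold change -0.28 ± 0.12 (SE), edgeR adjusted p = 0.390, unadjusted p = 0.0398). Pstpip1, which binds the tail of CD2, stood at 0.29 ± 0.17 (adjusted p = 0.501), Cd2bp2 at -0.10 ± 0.10 (adjusted p = 0.694) and the scaffold gene Cd2ap at 0.13 ± 0.16 (adjusted p = 0.745).

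Among 20 signalling partners 2 had an unadjusted p under 0.05 with a higher level and 1 with a lower level. Over all tested genes these shares were 5.69% and 6.46%. Skap1, an adaptor that Fyn phosphorylates on the way to integrin activation, was at 660 ± 62 CPM in WT/mut, against 844 ± 167 CPM in WT (-0.35 ± 0.13, edgeR adjusted p = 0.340). Csk, the kinase that holds Fyn and Lck in their inactive state, was at 136 ± 5.2 CPM in WT/mut, against 105 ± 27 CPM in WT (0.38 ± 0.15, adjusted p = 0.368). Inpp5d, the gene of the lipid phosphatase SHIP1, which binds SLAM tails in competition with SAP, was at 268 ± 31 CPM in WT/mut, against 217 ± 38 CPM in WT (0.31 ± 0.13, adjusted p = 0.386). The ranges of all 20 overlapped between the groups, and over all tested genes 4.46% had separate ranges. Lck, the Src family kinase of the T cell receptor, was at 2723 ± 300 CPM in WT/mut, against 3193 ± 704 CPM in WT (-0.23 ± 0.14, adjusted p = 0.515).

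Of the 8 genes for adhesion and for Tfh functions known to need SAP, Icos (-0.52 ± 0.09 (SE), edgeR adjusted p = 0.0721), Il21 (-0.55 ± 0.12, adjusted p = 0.142) and Il4 (0.78 ± 0.16, adjusted p = 0.106) had separate ranges, and these were the 3 that DESeq2 called. Over all genes, ranges were separate for 4.46% of those tested, and DESeq2 called 1.86%. This list too was chosen with earlier results known, so no enrichment can be read from these shares. Cd40lg stood at -0.28 ± 0.11 (adjusted p = 0.368). These genes lie outside the SLAM, SAP and Fyn set itself, of which neither tool called a member.

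**Figure D3:**
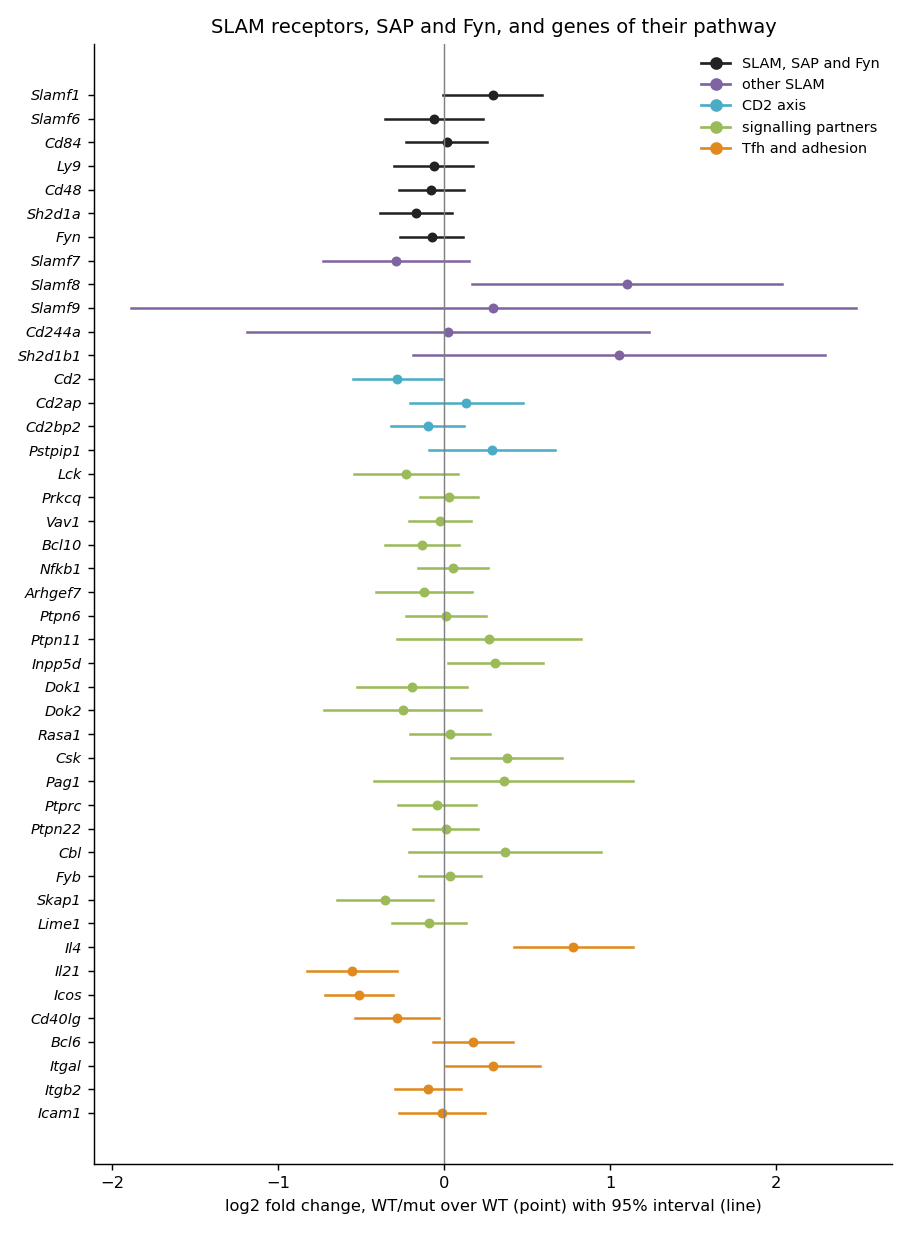
Log2 fold change of WT/mut over WT (points) with 95% intervals (lines) for the 7 genes and the 37 tested genes of the pathway lists, with each gene drawn once. The intervals of the 7 genes all include 0, and that of Slamf1 begins at -0.00499.

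Along the locus, 40 tested genes lie between 500 kb before and 500 kb after the cluster on chromosome 1. EdgeR called 0 of them, and 2 had an unadjusted p under 0.05, both lower and both beyond Slamf6. They were Ncstn, a subunit gene of gamma-secretase (-0.29 ± 0.11 (SE), adjusted p = 0.343), and Pex19, a peroxisome gene (-0.53 ± 0.21, adjusted p = 0.356), the second named after its value was seen. That is 5% of the 40, beside 12.2% of all tested genes, and the median over the locus was -0.06. DESeq2 called 0 of the 40, beside 1.86% of all genes with an adjusted p. It gave 3 of the 40 an unadjusted p under 0.05, Ncstn, Pex19 and Slamf1, beside 2197 of all 15521 tested genes. On the nearer flanks, Itln1 stood at 0.37 ± 0.53 (adjusted p = 0.796), Cd244 at 0.023 ± 0.55 (adjusted p = 0.992) and Vangl2 at -1.31 ± 0.76 (adjusted p = 0.491), the last at 0.584 CPM in WT/mut, against 1.45 CPM in WT.

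**Figure D4:**
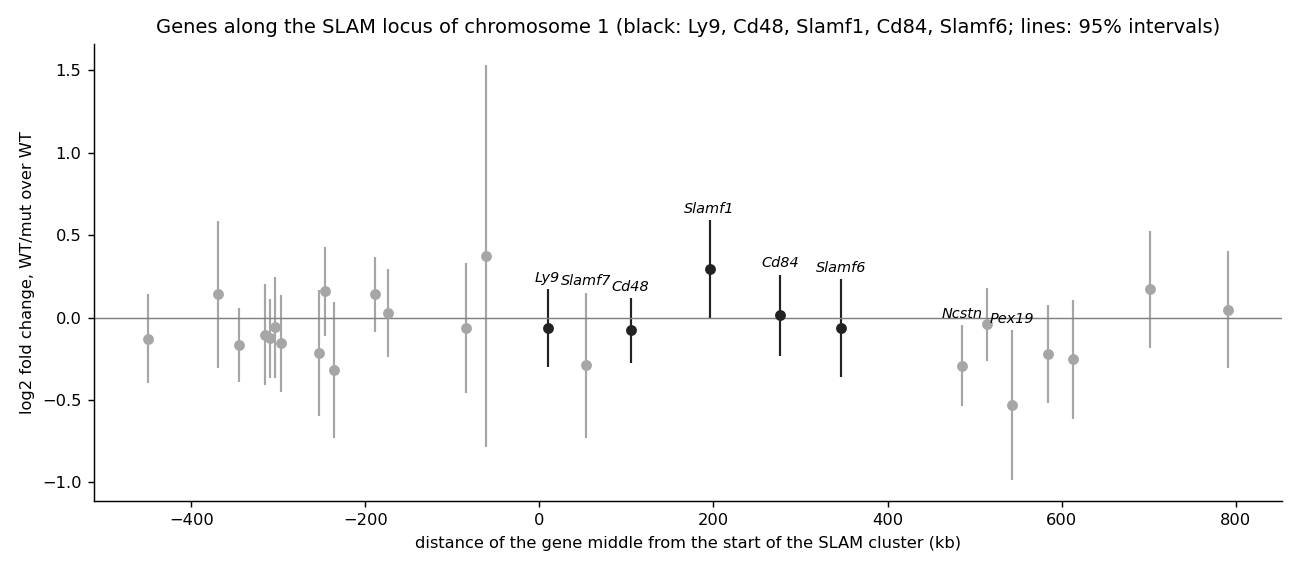
Log2 fold change of WT/mut over WT with 95% intervals, against distance in kb from the start of the SLAM cluster, for the 27 genes of the window whose 2 group means sum to at least 10 CPM. Slamf1, at 0.29, has the highest value among the 5 black points, and the other 4 lie between -0.08 and 0.015.

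The marker sums of B cells overlapped between the groups and those of plasma cells did not, and the fit was repeated with the log2 of each marker sum as a covariate. With the B cell sum, Slamf1 was at 0.38 ± 0.18 (SE) and Sh2d1a at -0.16 ± 0.13, and Ly9 turned to 0.12 ± 0.12. The plasma cell sums of WT/mut replicates 6 to 10 were 1280, 1379, 1090, 601 and 408 CPM. Replicates 6, 7 and 8, the highest, were also those outside the WT range for Slamf1 and for Sh2d1a, and the reason was not tested. With the plasma cell sum, which did not overlap between the groups, errors were larger. In that fit Slamf1 was at 0.17 ± 0.29 and Sh2d1a at 0.11 ± 0.17. The edgeR adjusted p was at least 0.694 for all 7 genes in both fits. The direction of Sh2d1a therefore held over each left-out library and each scaling but not with the plasma cell sum.

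**Figure D5:**
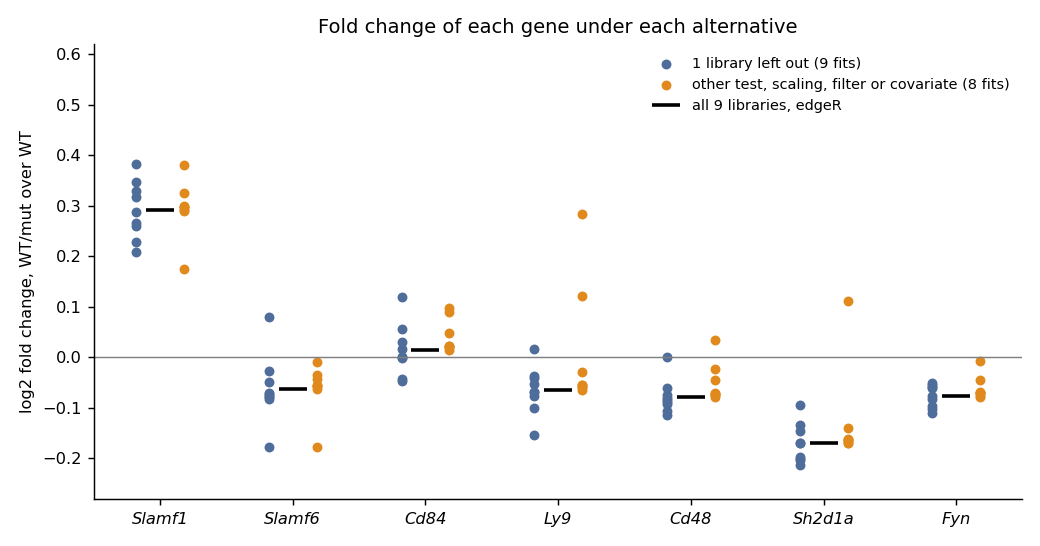
Log2 fold change of WT/mut over WT for each of the 7 genes with all 9 libraries (black line), in 9 fits that each left out 1 library (blue) and in 8 fits with another test, scaling, filter or covariate (orange). Slamf1 stays above 0 and Fyn below 0 in all of them, while the other 5 genes have values on both sides.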

How the data were processed

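Per the labels' protocols, libraries were made from 300 pg of RNA each with SMART-Seq chemistry, without strand information. The values the authors deposited are expected counts, unscaled estimates that can have decimals. The submitters' processing notes name cutadapt 2.10, STAR 2.5.3, RSEM 1.3.0, DESeq2 and the mm10 build. The annotation release was not given in the sources used here. Values with decimals made up 11.1% to 18.3% of each library (tolerance 1e-06), and values were rounded before testing. Gene positions and exon lengths are those of GENCODE M21, in which 54079 of 54146 identifiers were found (52480 with the same version), including all 7 genes.

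Groups were compared in R 4.3.3 with edgeR 4.0.16, by its quasi-likelihood test (robust fit, TMM, no covariate, 5 against 4 libraries) on 15521 genes kept by filterByExpr (at least 10 counts, total at least 15), with Benjamini-Hochberg adjustment and a threshold of 0.05. Each SE was taken as the size of the log2 fold change over the root of its F value, and 95% intervals use the degrees of freedom of the fit. Exact permutation tests compared mean log2 CPM (prior count 2) over the libraries, where the smallest p the design allows is 0.00794. Alternatives were DESeq2 1.42.0, limma-voom (limma 3.58.1), other size factors, no filter, a non-robust fit, marker covariates and leaving out each library. The 7 genes, the lists and the marker lists were chosen with earlier results of these data known. Text names the 7 genes, Tgfbr1, other SLAM genes, up to 4 genes of lowest p per pathway list, the 2 most abundant of each marker list and those at 0, the 2 genes nearest in profile and on each side of the locus. Further marker genes were named after their values were seen. Predicted, clone-named and mitochondrially encoded genes were not eligible as nearest in profile. The script was tested on simulated data.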

Additional observations from a re-analysis of the deposited data

Results flagged for a closer look

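Within each group, the CPM values of the 7 genes and of their sum were searched for a library that stood far from the rest, which made 16 sets of values. Chance gives such a library in about 1 of 20 sets. For Cd84, WT/mut replicate 10 was at 212 CPM and the nearest of the other 4 WT/mut libraries at 240 CPM, a gap of 0.716 of the range of the group, just past the 95% critical value of Dixon's test for 5 values. For Cd48, WT replicate 5 was at 224 CPM and the nearest of the other 3 WT libraries at 187 CPM, a gap of 0.839 of the range, just past that value for 4 libraries.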

How the results depend on the processing

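The 7 genes were called in 0 of 17 alternative fits each. Over all genes edgeR called 19, 24 without WT replicate 4 and between 2 and 8 without any other single library, 0 with the plasma cell covariate (456 at an unadjusted p under 0.05), and DESeq2 called 288. Pathway calls numbered 3 with DESeq2 (Il4, Il21 and Icos) and 1 with the B cell covariate (Icos, -0.67 ± 0.09 (SE), adjusted p = 0.033), and 0 in the other 15 alternatives. Signs turned with the plasma cell covariate for Ly9 (0.284), Cd48 (0.0341) and Sh2d1a (0.112), and with the B cell covariate for Ly9 (0.121). With 1 library left out, log2 fold changes ranged from -0.178 to 0.0795 for Slamf6, from -0.047 to 0.119 for Cd84, from -0.153 to 0.0157 for Ly9 and from -0.114 to 0.000639 for Cd48, and the cause was not tested. For the order of levels in WT/mut, the longest coding transcript put Sh2d1a at place 2, Cd48 at 3, Slamf6 at 4 and Ly9 at 5, and the median coding transcript put Sh2d1a at 2, Slamf6 at 3, Cd48 at 4 and Ly9 at 5. Both lengths were chosen after seeing the data. With no filter the median of all genes moved to 0.393. That fit adds genes with very few counts, and WT/mut replicate 7 had 30143 genes detected. The part of either in the shift was not tested. No paired analysis was possible because the groups share no replicate number and no litter is given per library.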

Other observations

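SAP is also known to be needed for innate-like T cells, so genes of these cells and of NK cells were read as well. Cd160, a receptor gene shared by NK cells and T cells, was the most abundant of the 8, at 96.1 ± 10.3 CPM in WT/mut, against 79.9 ± 10.4 CPM in WT (log2 fold change 0.27 ± 0.12 (SE), edgeR adjusted p = 0.404). Next was Klrb1a at 3.48 ± 0.77 CPM in WT/mut, against 3.82 ± 1.26 CPM in WT. Zbtb16, which encodes the innate-like T cell factor PLZF, had 41 counts summed over WT/mut and 23 summed over WT. Klrk1, the gene of the receptor NKG2D, had 157 of its 170 counts in WT/mut replicate 7, the library with 30143 genes detected, and 0 in WT. Ncr1 had 22 of its 23 counts in WT/mut replicate 9 and 0 in WT. Klrd1 went the other way, with 14 counts summed over WT/mut and 34 summed over WT. Summed counts were 133 in WT/mut and 119 in WT for Klrb1c, and 4 in WT/mut and 3 in WT for Klra1.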
